A study of Mus musculus with 6 samples.

Results

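Chemokines are small secreted proteins that draw leukocytes to a tissue, and fibroblasts release several of them together with interleukin-6 when they sense injury or microbial products. The group described here holds 10 genes: Ccl2, Ccl5, Ccl7, Ccl20, Cxcl1, Cxcl2, Cxcl5, Cxcl10, Cxcl12 and Il6. They were taken by name from every probe whose RefSeq accession belongs to a member, which gave 12 probes, out of 33269 genes or transcripts on the array. Ccl7 and Cxcl12 had 2 probes each and the other genes 1. A gene entered the test where every array of 1 group or of both held it well above background, which was so for 8 of the 10 and not for Cxcl2 and Il6.

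RNA came from mouse embryonic fibroblasts and was measured on 6 one-colour arrays. There were 3 Rap1 knockout samples and 3 wild-type samples. Rap1 is the telomere-binding protein encoded by Terf2ip, and Cre recombinase removes its floxed exon 3. Cells of both groups had been infected with the SV40 large T antigen, which disables p53 and the retinoblastoma proteins, and with Cre, and were grown with puromycin. Which Terf2ip alleles the wild-type cells carried, and whether the replicates came from separate embryos or cultures, is not stated. The p-values therefore measure only the spread between these samples.

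CC chemokines carry adjacent cysteines near the start of the mature protein, and CXC chemokines have another residue between those cysteines. CXC chemokines with a glutamate-leucine-arginine motif before the cysteines act on neutrophils, while those without it, such as Cxcl10, mostly act on lymphocytes. In fibroblasts, transcription of many of these genes is switched on by NF-kB, AP-1 and C/EBP factors downstream of interleukin-1, tumour necrosis factor and Toll-like receptors, and Cxcl10 also responds to interferons.

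Levels are given as log2 of the processed signal minus the array's own 75th percentile, so that a level of 0 lies at that percentile and a step of 1 is a doubling. Between 61.7% and 67.1% of the probes on an array were well above background. Terf2ip, which checks the labels, was well above background on no knockout array and on all wild-type arrays, and was at least 38.3-fold lower in knockout cells (limma adjusted p = 0.00794). Where its probe lies relative to exon 3 was not determined. Knockout array 1 and wild-type array 1 shared slide 1, and the other 4 arrays shared slide 2. Wild-type arrays 2 and 3 stood out as near-alike, with an SD of the log2 difference of 0.25 over all tested features, against 0.83 to 1.25 for the other pairs. The number of arrays limits the precision.

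No member passed the test between knockout and wild-type cells. At a limma adjusted p under 0.05, 0 of the 8 tested members were called, where 0.0102% of all 19657 features were called. An unadjusted p under 0.05 was reached by 2 members, Ccl7 and Ccl20, against 10.3% of all features. That count was 4 with median scaling, where 2011 of the 19657 features reached it. It was 1 with normexp (2138 features) or the deposited value table (2104), and 0 without knockout array 3 (3876). Without wild-type array 1 it was 3 (3545 features). On slide 2 alone, a setting chosen after seeing the data, it was 5 (4355 features). With wild-type arrays 2 and 3 averaged into 1 sample, again no member passed, and Ccl20 alone kept an unadjusted p under 0.05. By at least 2-fold, 3 members were higher (3.9% of features), Ccl5, Ccl7 and Cxcl10, and 3 were lower (6.26% of features), Ccl20, Cxcl1 and Cxcl5. Of the lower members, Ccl20 and Cxcl1 entered the test through the wild-type arrays. Their sizes include an unmeasured level on knockout array 1. The members with a log2 difference above 0 were Ccl7, Ccl5, Cxcl10 and Cxcl12, and those below 0 were Ccl20, Cxcl1, Cxcl5 and Ccl2. Their median difference was -0.04 and that of all features 0.07. Scaling by the array median raised that of all features by 0.11.

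Across the 6 arrays the members varied more than most transcripts did. Between the highest and the lowest array, Ccl2 spanned 5.17-fold and Cxcl1 294-fold, the lowest Cxcl1 value being one that was not well above background. The range of a tested member over the 6 arrays exceeded that of 87.2% (Ccl2) to 99.7% (Cxcl1) of all features, and the median range was 4.08 on the log2 scale for the tested members and 1.10 for all features. Wide ranges were not particular to the members, since the median range was 2.5 for other tested chemokines and 2.42 for fibroblast markers. Knockout array 1 was the lowest of the 6 arrays for 6 of the 10 members, Ccl2, Ccl20, Cxcl1, Cxcl2, Cxcl5 and Il6, where it was lowest for 23.6% of features. Wild-type array 1 was the highest for 5 of 10, Ccl20, Cxcl1, Cxcl2, Cxcl12 and Il6, where it was highest for 9.48% of features. Knockout array 3 was the highest for Ccl2, Ccl5, Ccl7 and Cxcl10 (13.8% of features). The counts of 10 members include Cxcl2 and Il6, which did not enter the test, while the shares are over tested features. On knockout array 1, Ccl20, Cxcl1, Cxcl2 and Il6 were not well above background.

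**Figure D1:**
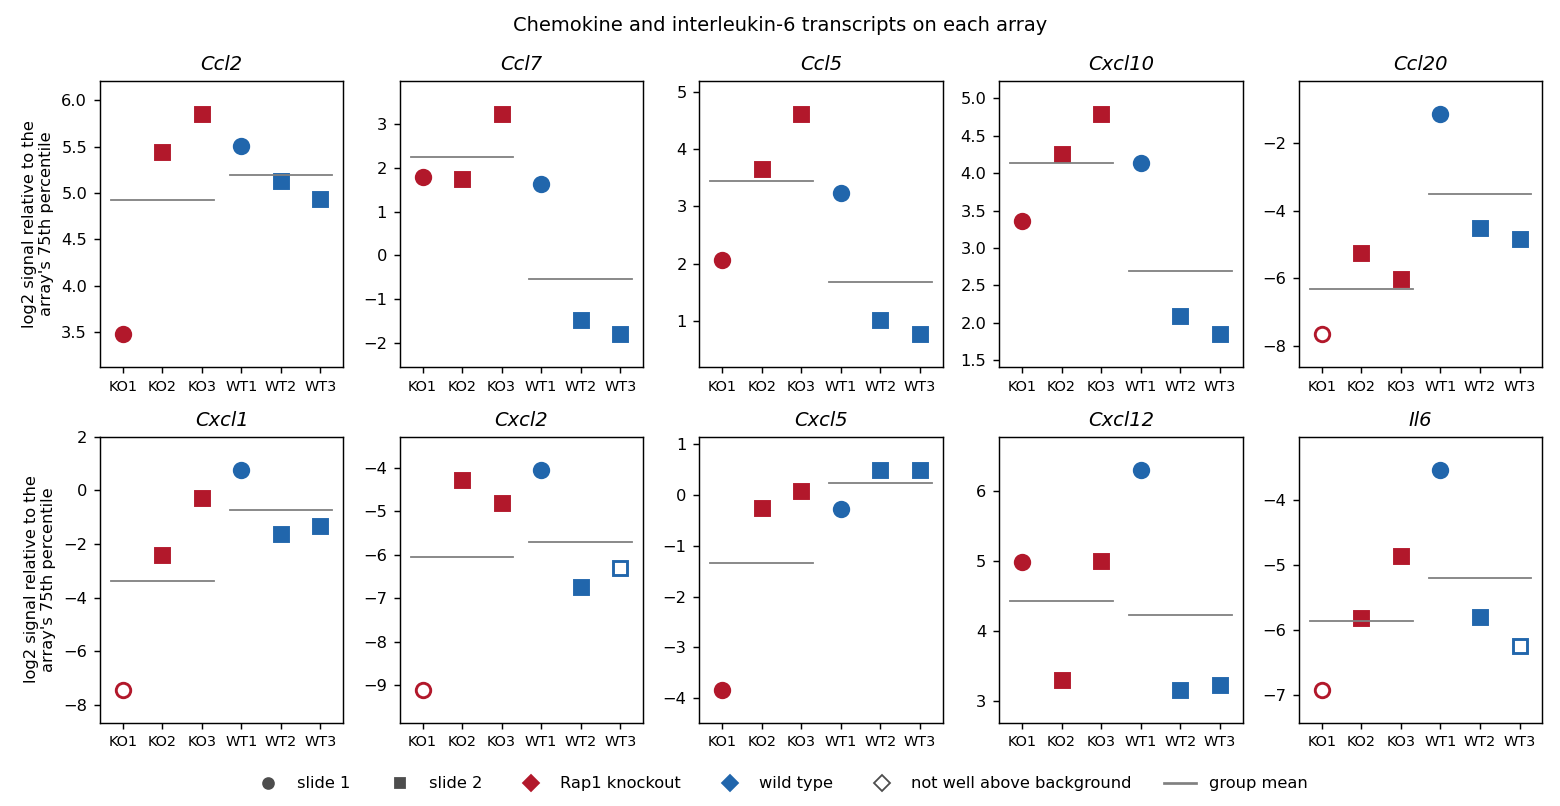
Log2 level of each gene, counted from its array's 75th percentile (y axis), on the 3 Rap1 knockout (KO) and 3 wild-type (WT) arrays (x axis); circles are slide 1, squares slide 2, open symbols were not well above background and grey lines are group means. Knockout array 1 lies lowest in 6 panels, and wild-type arrays 2 and 3 lie close together in every panel.

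Signs of the difference often turned between the slides. On slide 1, with 1 array of each group, 9 of 10 members were lower in the knockout array (42% of features were), and 8 of 10 by at least 2-fold (12.4% of features). On slide 2, with 2 arrays of each group, 8 of 10 were higher in the knockout arrays (53.5% of features), and 4 of 10 by at least 2-fold (6.54% of features). For 7 of 10 members the difference had opposite signs on the slides, as for 39.4% of all features. Here too the 10 members include the untested Cxcl2 and Il6, while the shares are over tested features. Of the 8 tested members, 7 were lower in the knockout array on slide 1. Because slide 1 holds 1 array per group, the slide and the single arrays cannot be told apart. Ccl7 lay above 0 and Ccl20 and Cxcl5 below 0 on both slides.

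**Figure D2:**
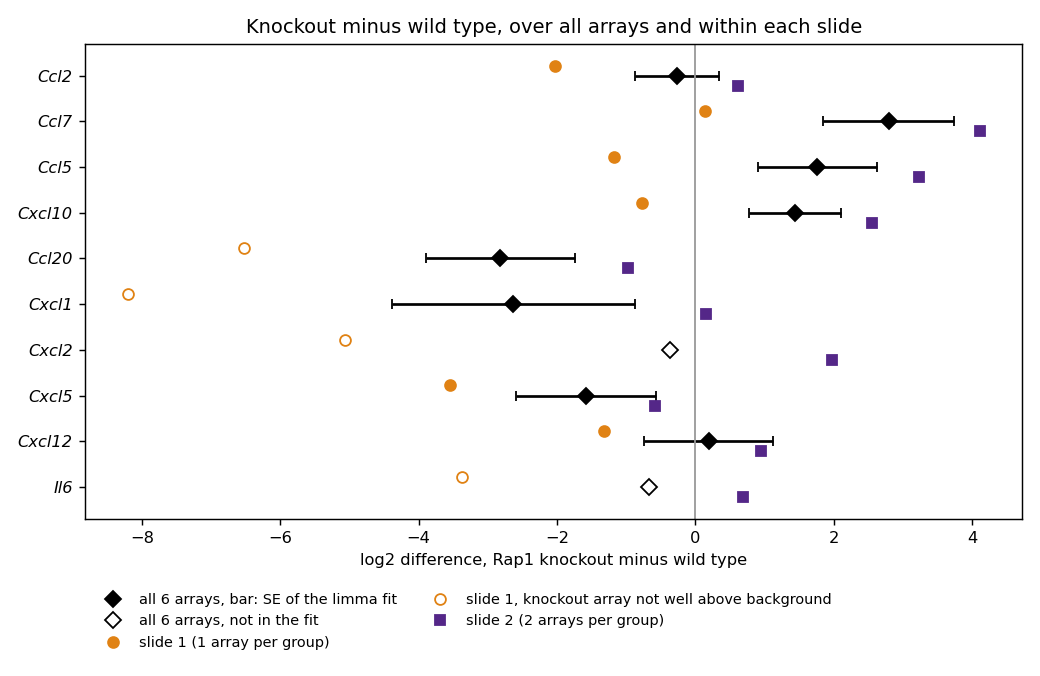
Log2 difference, Rap1 knockout minus wild type (x axis), for each gene (y axis): diamonds are all 6 arrays with the SE of the limma fit (open: gene not in the fit), circles are slide 1 with 1 array per group (open: the knockout array was not well above background, so the size there is not measured) and squares are slide 2 with 2 arrays per group. Ccl2, Ccl5, Cxcl1, Cxcl2, Cxcl10, Cxcl12 and Il6 have their slides on opposite sides of 0.

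The stretch before each gene's start is shown because NF-kB, the factor that these genes are best known to share, binds there in many of them. The RefSeq promoter table for GRCm38.p6, with 250 bases before and 50 after the start, held 6 of the 10 members, namely Ccl20, Cxcl1, Cxcl2, Cxcl10, Cxcl12 and Il6. The kB consensus of 10 bases, sought on both strands, was matched in 5 of these 6 and in 8.49% of 32544 promoters of the same length. Beside each gene, 30 bases are printed 5′ to 3′ on the gene's strand, with the match in capitals.
Ccl20, chr1:83116676-83116705, + strand: aatcaatgggGGAAAACCCCgggtgagaac
Cxcl1, chr5:90891164-90891193, + strand: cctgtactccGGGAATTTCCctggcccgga
Cxcl2, chr5:90903792-90903821, + strand: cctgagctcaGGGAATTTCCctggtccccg
Cxcl10, chr5:92349029-92349058, - strand: agaggggagaGGGAAATTCCaagttcatgg
Cxcl10, chr5:92348973-92349002, - strand: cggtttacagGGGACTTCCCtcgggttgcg
Il6, chr5:30013060-30013089, + strand: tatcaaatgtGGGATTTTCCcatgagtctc

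Cxcl1 and Cxcl2 hold the same 10 letters, which match again on the other strand with a shift of 1 base. The match of Ccl20 reads on the other strand, and the one nearest to the start of Cxcl10 overlaps a further match. The first base of the match lies 80 bases before the start in Ccl20, 71 in Cxcl1, 97 in Cxcl2, 159 and 103 in Cxcl10 and 44 in Il6. Cxcl12 had no match in its window. The AP-1 letters TGANTCA, sought on both strands, occurred in Cxcl10 and Il6 and in 7.79% of promoters. The core of the interferon response element, a motif of 10 letters sought likewise, occurred in Cxcl10 and in 3.45% of promoters. These matches describe letters in a window and do not show that a factor was bound. In the gene order of the same assembly, Ccl2 and Ccl7 are neighbours on chromosome 11 with no coding gene between them, as are Cxcl1 and Cxcl2 on chromosome 5. Cxcl5 lies before Cxcl1, with 4 coding genes between them.

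Ccl2, which draws monocytes through the receptor Ccr2, was bright on every array. Its levels were 3.48, 5.44 and 5.85 in knockout cells and 5.51, 5.13 and 4.93 in wild-type cells. Knockout array 1 was low and the other knockout arrays were level with or above the wild type. The means were 4.92 ± 1.27 in knockout and 5.19 ± 0.29 in wild-type cells (SD, n = 3 each), and the log2 difference was -0.27 (SE 0.61, limma adjusted p = 0.858). Without knockout array 1 it was 0.46, so the direction rests on that array.

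Ccl7 acts on monocytes like its neighbour Ccl2. It read 1.78, 1.74 and 3.23 in knockout cells and 1.64, -1.47 and -1.80 in wild-type cells. The groups did not overlap, but only just: wild-type array 1 was near the knockout level, and wild-type arrays 2 and 3 were far below it. Such a separation, in either direction, was found for 17.2% of all features and upward for 11.3%. The log2 difference was 2.79 (SE 0.95, limma adjusted p = 0.474), or 6.92-fold, with 0.14 on slide 1 and 4.11 on slide 2. A second probe read 1.36, 1.36 and 2.68 in knockout cells and 1.24, -1.85 and -2.30 in wild-type cells. After each probe's own mean was removed, the probes of Ccl7 differed by at most 0.11 on any array. With wild-type arrays 2 and 3 averaged, the difference was 2.25 (limma adjusted p = 0.936).

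Repeated spots of the Ccl2 probe gave the spread within an array. Over 10 spots per array their SD was 0.04 to 0.08. Its highest and lowest arrays lay 2.37 apart. The lowest spot of knockout array 2 read 5.32 and the highest of knockout array 1 read 3.58. Il6 also had 10 spots, 8 to 10 of which were usable, with an SD of 0.08 on wild-type array 1, where it was brightest, and 0.35 on knockout array 1, where it was dimmest. The spots of an array share 1 labelled RNA and 1 hybridisation, are not replicates of a sample, and do not measure the error between arrays.

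**Figure D3:**
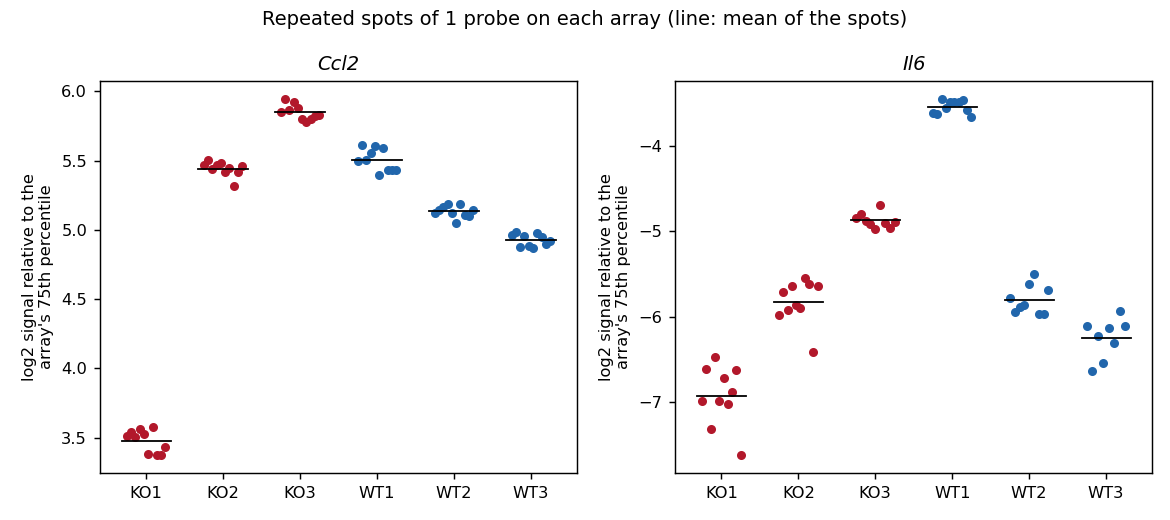
Each dot is 1 spot of the Ccl2 probe (left) or the Il6 probe (right), as a log2 level counted from the array's 75th percentile (y axis), on each Rap1 knockout (KO, red) and wild-type (WT, blue) array (x axis); lines are means of the spots. For Ccl2 the spots of knockout array 1 reach 3.58 at most, below every spot of the other arrays.

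Ccl5, which draws T cells and monocytes, read 2.07, 3.65 and 4.61 in knockout cells and 3.24, 1.03 and 0.78 in wild-type cells. Only wild-type array 1 reached into the knockout range. Its mean was 3.44 ± 1.28 in knockout and 1.68 ± 1.36 in wild-type cells (SD, n = 3 each), which leaves 1.76 on the log2 scale (SE 0.86, limma adjusted p = 0.499). On slide 1 the difference was -1.17 and on slide 2 it was 3.23.

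Cxcl10, the interferon-inducible ligand of Cxcr3, had a pattern of the same kind. Its levels were 3.36, 4.25 and 4.79 in knockout cells and 4.14, 2.09 and 1.85 in wild-type cells. Again wild-type array 1 lay among the knockout arrays and wild-type arrays 2 and 3 lay below. The means were 4.14 ± 0.72 in knockout and 2.69 ± 1.25 in wild-type cells (SD, n = 3 each), and their difference, 1.44 in log2 (SE 0.67), did not pass (limma adjusted p = 0.497). It was -0.77 on slide 1 and 2.55 on slide 2. Fitted on slide 2 alone, where wild-type arrays 2 and 3 are the only wild type, Cxcl10 passed (limma adjusted p = 0.0474). It was the only member to do so there. While 2 of all 19657 features passed with all arrays, 302 passed in this slide 2 fit, so passing was more common there in general. Since that fit takes the wild-type spread from those near-alike arrays, it does not measure the spread between separate wild-type samples. Over all alternatives tried its limma adjusted p ran from 0.0474 to 0.945.

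Ccl20, which acts through Ccr6 on dendritic cells and interleukin-17-producing T cells, was lower on every knockout array than on every wild-type array. It read -7.65, -5.26 and -6.03 in knockout cells and -1.13, -4.51 and -4.84 in wild-type cells, and knockout array 1 was not well above background. Separation with lower knockout levels was seen for 5.89% of features. The log2 difference was -2.82 (SE 1.08, limma adjusted p = 0.486), a size that includes the unmeasured level of knockout array 1. Ccl20 entered the test through the wild-type arrays, since 2 of 3 knockout arrays held it well above background. With normexp background correction the difference was -1.01, and with the deposited value table it was -1.02 (unadjusted p = 0.13 in both). On slide 1 it was at least 53.3-fold lower in the knockout array, while on slide 2 the difference was -0.97. Without wild-type array 1, the bright one, the difference was -1.64 (limma adjusted p = 0.291).

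The neutrophil chemokines Cxcl1, Cxcl2 and Cxcl5 all carry the glutamate-leucine-arginine motif and act through Cxcr2. Cxcl1 read -7.43, -2.40 and -0.28 in knockout cells and 0.77, -1.63 and -1.35 in wild-type cells. As processed signals these were 5.01, 158 and 1110 in knockout cells and 1970, 353 and 405 in wild-type cells. Knockout array 1 was not well above background, and knockout array 3 exceeded wild-type arrays 2 and 3. Cxcl1 thus entered the test through the wild-type arrays, since 2 of 3 knockout arrays held it well above background. The log2 difference was -2.63 (SE 1.75, limma adjusted p = 0.549), which includes the unmeasured level of knockout array 1. It was -1.42 with normexp background correction and -1.43 with the deposited value table. Without knockout array 1 it was -0.60, and on slide 2 it was 0.15.

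Cxcl2 was dim, and read -9.10, -4.29 and -4.80 in knockout cells and -4.04, -6.74 and -6.31 in wild-type cells. Neither knockout array 1 nor wild-type array 3 was well above background. Hence 2 of 3 arrays measured it in each group, it did not enter the test, and the groups overlapped. The group means were -6.06 ± 2.64 in knockout and -5.70 ± 1.45 in wild-type cells (SD, n = 3 each). Without the filter on dim probes the log2 difference was -0.37 (limma adjusted p = 0.932). It was -0.01 with normexp or the deposited value table, 1.15 without knockout array 1 and 0.46 without wild-type array 1, so its direction rests on those arrays.

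Cxcl5 read -3.83, -0.25 and 0.07 in knockout cells and -0.27, 0.50 and 0.50 in wild-type cells. It was steady in wild-type cells, unlike Cxcl1 and Cxcl2, and the low value was again that of knockout array 1. In log2 the groups differed by -1.58 (SE 1.01, limma adjusted p = 0.537), and by -0.33 without that array. Within slide 1, the knockout array was 11.7-fold lower for Cxcl5, at least 198-fold lower for Cxcl1 and at least 7.06-fold lower for Cxcl2 than the wild-type array. On slide 2 the differences were -0.59, 0.15 and 1.98 for Cxcl5, Cxcl1 and Cxcl2.

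Cxcl12, the ligand of Cxcr4 that holds blood-forming stem cells in their niche, is made by mesenchymal cells without an inflammatory stimulus. Its brighter probe read 4.99, 3.30 and 5.01 in knockout cells and 6.31, 3.17 and 3.24 in wild-type cells. The groups overlapped, and the wild-type arrays alone spanned 3.14. The log2 difference was 0.19 (SE 0.93, limma adjusted p = 0.937). A probe of another transcript of the gene read 2.19, 0.83 and 2.87 in knockout cells and 4.19, 1.03 and 1.03 in wild-type cells, a difference of -0.12. The probes differed by at most 0.49 on an array after their own means were removed, and they did not share the sign of the group difference. The sign of the brighter probe turned as well without knockout array 1 (-0.08) or 3 (-0.10), and without wild-type array 2 (-0.34) or 3 (-0.31).

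Il6, the fever and acute-phase cytokine that signals through Il6st, was near background. It read -6.92, -5.82 and -4.87 in knockout cells and -3.54, -5.80 and -6.25 in wild-type cells. Wild-type array 1 was the brightest, and knockout array 1 and wild-type array 3 were not well above background. Of the 10 Il6 spots, 3 were well above background on knockout array 1 and 4 on wild-type array 3, below the required share of 0.5. The means were -5.87 ± 1.03 in knockout and -5.20 ± 1.45 in wild-type cells (SD, n = 3 each), and the groups overlapped. Without the filter the log2 difference was -0.67 (limma adjusted p = 0.889). Without wild-type array 1 it was 0.15. On slide 1, Il6 was at least 10-fold lower in the knockout array, and on slide 2 the difference was 0.68.

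By the smallest root mean square difference of centred log2 levels over the 6 arrays, the patterns nearest to Il6 were those of Abca1, a cholesterol exporter (0.25), Ptn, the growth factor pleiotrophin (0.26), and S100a16, a calcium-binding protein (0.28). Abca1 lay at -1.14, -0.74 and 0.69 on the knockout arrays and at 1.86, -0.23 and -0.44 on the wild-type arrays, where Il6 lay at -1.39, -0.29 and 0.66 and at 1.99, -0.27 and -0.71. Nearest to Ccl2 were Dtna, a dystrobrevin (0.14), Sh3gl3, an endophilin (0.17), and Enpp1, a pyrophosphatase (0.18), all low on knockout array 1. With 6 arrays, and wild-type arrays 2 and 3 close together, such likeness rests on few values, and for Il6 on 2 arrays, knockout array 1 and wild-type array 3, where its own probe was not well above background.

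Among 27 other chemokines, 25 were on the array, 10 of these were tested and 0 passed (limma adjusted p under 0.05), with 6 above 0 and 4 below. Ccl17, a ligand of Ccr4, came nearest to the threshold, at 1.11 on the log2 scale (SE 0.44, limma adjusted p = 0.486). Ccl17 entered the test through the knockout arrays, since 2 of 3 wild-type arrays held it well above background, so its difference includes an unmeasured level. The neutrophil chemokine Ppbp differed by -1.39 (SE 1.19) and Ccl25, a thymus and gut chemokine, by 0.37 (SE 0.38). Ppbp read -6.99, -2.46 and -3.19 in knockout cells and -1.70, -3.16 and -3.60 in wild-type cells. Like Cxcl1, Cxcl2 and Cxcl5, it was lowest on knockout array 1, where it was not well above background. Ppbp thus entered the test through the wild-type arrays, and its difference includes that unmeasured level. None of the 6 arrays detected Ccl3, Ccl4, Ccl11 or Ccl12 well above background, within 10 such genes of the list.

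Of 23 chemokine receptors, 6 were tested and 0 passed, and 12 were not well above background on any array, Ccr2 and Cxcr2 among them. The 3 smallest p-values belonged to Ackr2, a scavenger of CC chemokines, at 1.13 (SE 0.59), Xcr1 at -0.31 (SE 0.39) and Cxcr6 at -0.59 (SE 1.10). Ackr2 entered the test through the knockout arrays, with 2 of 3 wild-type arrays well above background. Cxcr6 entered through the wild-type arrays, with 2 of 3 knockout arrays well above background. Both differences include an unmeasured level. Ackr3, the second receptor of Cxcl12, was bright and read 2.24, 1.42 and -0.04 in knockout cells and 1.12, 1.14 and 1.32 in wild-type cells, while Cxcr4, its main receptor, was well above background on 1 wild-type array and on no other.

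In the interleukin-6 family and its signalling chain, 19 of 20 genes on the array were tested and 0 passed, with a median difference of 0.07. Cebpd, a C/EBP factor that acts on Il6 and other acute-phase genes, had the smallest p. It read 2.62, 4.49 and 2.18 in knockout cells and 5.17, 5.29 and 5.21 in wild-type cells, so the groups did not overlap. Of the 19 tested genes, 1 separated downward, Cebpd (5.89% of features), and 1 upward, Clcf1 (11.3% of features). The log2 difference of Cebpd was -2.13 (SE 0.58, limma adjusted p = 0.429), with -2.54 on slide 1 and -1.92 on slide 2. Clcf1, a ligand of the family, differed by 0.43 (SE 0.24), and Osmr, the oncostatin M receptor, by -0.48 (SE 0.30). The shared receptor chain Il6st differed by 0.12 (SE 0.24) and Socs3, a feedback inhibitor, by -0.04 (SE 0.42).

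Inducers and control genes of NF-kB had 21 tested members, of which 0 passed, and 6 reached an unadjusted p under 0.05 (10.3% of features), with 4 higher and 2 lower. The knockout arrays lay above the wild-type arrays for 6 genes (11.3% of features) and below them for 1 (5.89%). Nfkbia, the inhibitor that NF-kB itself induces, read 4.95, 5.06 and 4.26 in knockout cells and 4.24, 2.94 and 3.04 in wild-type cells, which gives a difference of 1.35 in log2 (SE 0.42, limma adjusted p = 0.471). Nfkb2, a subunit, differed by 0.89 (SE 0.28, limma adjusted p = 0.471). Nfkbiz, the co-factor that NF-kB needs at Il6, read -2.22, -0.06 and 0.00 in knockout cells and 1.33, 1.09 and 0.97 in wild-type cells, a difference of -1.89 (SE 0.60, limma adjusted p = 0.471). The cytokines Tnf, Il1a and Il1b were not well above background on any array.

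The list of mRNA decay factors, which shorten the life of chemokine and Il6 transcripts or, like Elavl1, lengthen it, had all 7 genes tested, and 0 passed. Elavl1 differed by 0.32 (SE 0.24), Zfp36 by -0.58 (SE 0.47) and Zfp36l2 by -0.26 (SE 0.23). The median range of the list over the 6 arrays was 0.69, against 4.08 for the tested members, which do not include Il6. Other lists lay between: 2.5 for the other chemokines, 2.11 for the receptors, 1.84 for the NF-kB list and 1.33 for the interleukin-6 family. Of the marker lists described below, it was 3.69 for macrophages, 3.2 for epithelial cells, 2.42 for fibroblasts and 0.63 for lymphocytes, and the 1 tested endothelial marker had 3.51.

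**Figure D4:**
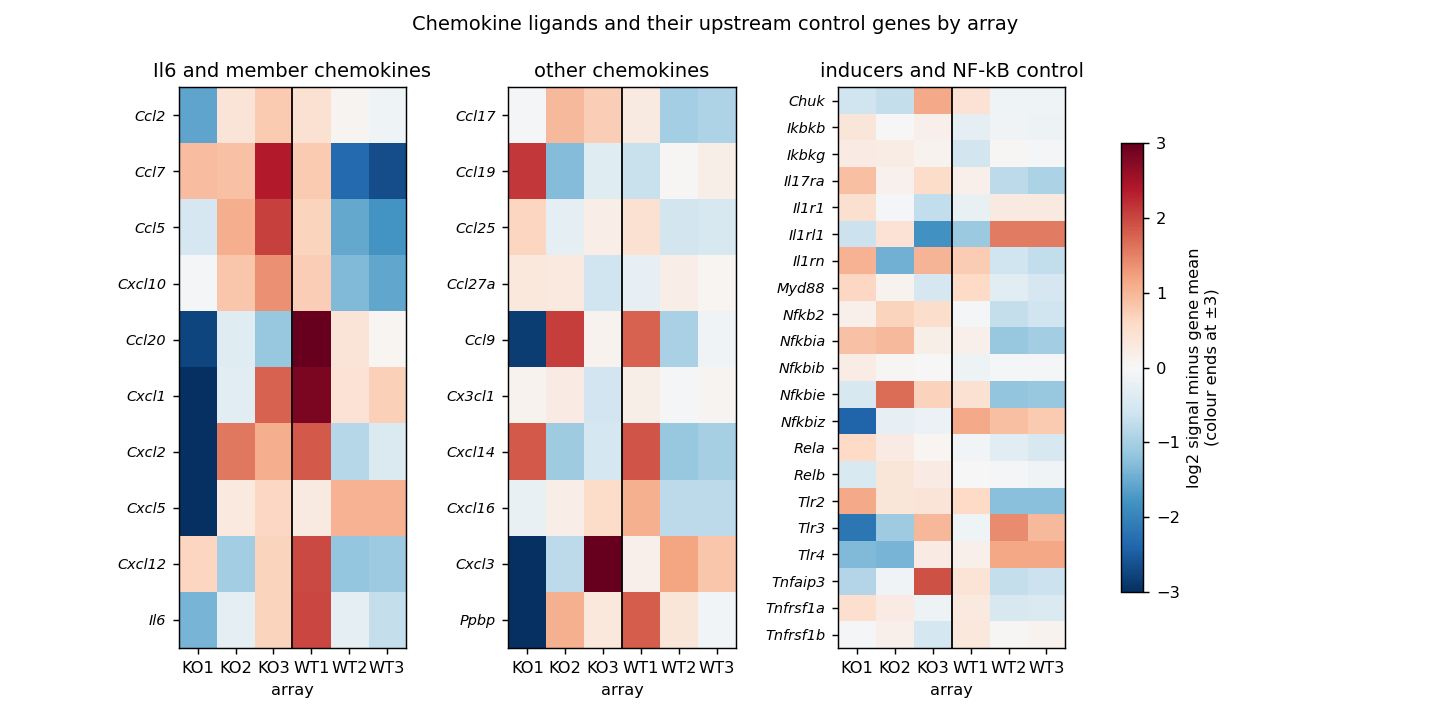
Colour gives log2 signal minus each gene's mean over the 6 arrays, for the described genes (left), the other tested chemokines (middle) and the tested inducers and control genes of NF-kB (right), with Rap1 knockout (KO) arrays left of the black line and wild-type (WT) arrays right of it. Knockout array 1 is the lowest array for Cxcl1, Cxcl2, Cxcl3, Cxcl5 and Ppbp, and Ccl5, Ccl7 and Cxcl10 are lowest on wild-type arrays 2 and 3. Of Cxcl1, Cxcl2, Cxcl3, Cxcl5 and Ppbp, only Cxcl5 was well above background on knockout array 1.

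Markers of the labelled cell type and of other cells were read beside these results. All 12 fibroblast markers were tested and 0 passed, but 9 lay below 0 in knockout cells and 6 of these by at least 2-fold (6.26% of features). Their median difference was -1.07. Their summed signal, relative to the 75th percentile, ranged from 329 to 571 in knockout and from 610 to 666 in wild-type cells. Vim averaged 6.92 ± 0.29 in knockout and 6.71 ± 0.26 in wild-type cells, S100a4 averaged 6.21 ± 0.76 in knockout and 7.13 ± 0.55 in wild-type cells, and Col1a2 averaged 5.98 ± 1.18 in knockout and 7.21 ± 0.17 in wild-type cells (SD, n = 3 each). On slide 1, 8 of the 12 were lower in the knockout array and 4 higher. The widest gaps there were those of Dcn, at -5.47 in the knockout and 5.79 in the wild-type array, of Thy1, at -2.22 in the knockout and 3.79 in the wild-type array, and of Lum, which was not well above background in the knockout array and read 2.66 in the wild-type array. Vim (6.90 in the knockout and 6.46 in the wild-type array), Pdgfrb (4.56 and 3.90), S100a4 (6.66 and 6.52) and Col1a1 (6.62 and 6.60) were level or higher in the knockout array. The part of these differences in the chemokine levels was not tested. In bulk RNA, fewer cells of a type and less RNA per cell cannot be told apart.

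Of 10 macrophage and monocyte markers on the array, 3 were tested and 0 passed. Ptprc, Adgre1, Itgam and Tyrobp were not well above background on any array. Cd14 averaged -0.27 ± 0.65 in knockout and 0.46 ± 0.36 in wild-type cells (SD, n = 3 each), while Lyz2 averaged -3.92 ± 2.24 in knockout and -4.13 ± 1.21 in wild-type cells. Aif1 averaged -5.41 ± 1.32 in knockout and -5.84 ± 1.24 in wild-type cells. The summed signal of the list was 0.828 to 1.46 in knockout and 1.31 to 1.71 in wild-type cells. Lyz2 read -5.33, -5.09 and -1.34 in knockout cells and -2.73, -4.82 and -4.83 in wild-type cells, and was highest on knockout array 3 and wild-type array 1. Cd14 did not share that order, with -0.41, 0.44 and -0.84 in knockout cells and 0.05, 0.71 and 0.61 in wild-type cells, where these same arrays were the lowest of their groups. Csf1r, the third tested marker, was at -6.24, -5.63 and -6.49 in knockout cells and -4.15, -7.84 and -7.21 in wild-type cells. It entered the test through the knockout arrays, since 1 of 3 wild-type arrays held it well above background. The part of such cells in the chemokine levels was not tested.

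The lymphocyte list summed to 0.533 to 0.936 in knockout and 0.558 to 0.702 in wild-type cells, most of it from Lck, which differed by 0.13 (SE 0.30), while Cd3e differed by 0.21 (SE 0.23). Cd3d, Cd2, Cd79a, Ms4a1 and Ncr1 were not well above background on any array. Endothelial markers summed to 0.0434 to 0.231 in knockout and 0.0526 to 0.234 in wild-type cells. Pecam1, Cdh5, Tie1 and Emcn were not well above background, Kdr differed by -0.03 (SE 1.01), and Cldn5 and Tek were dim. Epithelial markers summed to 4.73 to 13.5 in knockout and 3.69 to 5.84 in wild-type cells, with Krt18 at 1.53 (SE 0.48, limma adjusted p = 0.471), Krt19 at -0.39 (SE 1.15) and Epcam at 0.86 (SE 1.01). Of the 6 epithelial markers tested, 2 lay above 0 and 4 below, with a median difference of -0.08. Krt8 differed by -1.74 (SE 0.72), opposite in sign to Krt18.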

How the data were processed

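Intensity values of each array were taken from the deposited scanner output of Agilent Feature Extraction 10.5.1.1 (version per the file headers), whose processed signal is already background-subtracted. The authors also deposited a table of log2 values, for which the submitters' processing notes name limma. Its columns matched normexp-corrected and quantile-normalised scanner signals (r of at least 0.999983), but knockout columns 1, 2 and 3 matched scanner outputs 2, 3 and 1, and arrays are numbered here by the scanner outputs.

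Control and outlier spots were dropped, no spot was saturated, and spots of a probe were averaged as log2 of the processed signal minus the array's 75th percentile. RefSeq accessions named 23366 probes. The headers name build mm8, so no array coordinates are given. A probe with repeated spots counted as well above background on an array where a share of at least 0.5 of its spots did. Tested probes had every array of a group well above background, and the brightest such probe stood for its gene (19657 features). Where all arrays of a group, or its 1 array on slide 1, fell below, the fold is a bound against the lowest signal well above background. On knockout array 1 that signal was -6.86. Some probes not well above background read higher there, such as that of Ccr3 at -6.63. A fold given as at least a value thus holds against that lowest signal only. The groups were compared with lmFit and eBayes of limma, version 3.58.1 (R version 4.3.3; 2-sided, no block, Benjamini-Hochberg over all features, threshold 0.05), tested on simulated data. Normexp, as an alternative, used median spot signals.

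The members, lists and tests were chosen with earlier results of these data known. Genes were named by rule (each member, the 3 smallest p-values of a list, the 3 brightest of a marker list, the 3 patterns nearest to Il6 and to Ccl2), and the others after their values were seen. Some genes of these lists are not reported here. Deviations of same-numbered arrays had correlations of 0.01, 0.05 and -0.08, and those of the other pairs ran from -0.07 to 0.07. With 3 arrays per group, and near-alike arrays within the wild type, these values cannot decide whether samples were paired. The knockout numbers also differ between the scanner outputs and the deposited value table.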

Additional observations from a re-analysis of the deposited data

How the results depend on the processing

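No member passed at limma's adjusted threshold with quantile or median scaling, normexp, the deposited value table, another filter on dim probes, another choice among probes, a trended robust variance, the replicate block (0 members called), the slide block, or any 1 array removed. Other settings were chosen after seeing the data: wild-type arrays 2 and 3 averaged (0 members) and slide 2 alone, where 1 member passed, Cxcl10 (2.55, limma adjusted p = 0.0474). Over all features limma called 2, against 0 over probes above background on all 6 arrays (1781 at an unadjusted p under 0.05), 4 with the mean of a gene's probes, 6 over single probes, 0 with the replicate block (2354), 0 with the slide block (3483), 0 with wild-type arrays 2 and 3 averaged (692) and 302 on slide 2 alone. With 1 array removed the count ran from 0 to 64, the 64 being without wild-type array 1. Removing 1 array gave Ccl2 -0.73 to 0.46 and Cxcl12 -0.34 to 1.23. The sign of Ccl2 turned to 0.46 without knockout array 1 and to 0.61 on slide 2 alone, and that of Cxcl1 to 0.15 on slide 2 alone. Cxcl12 read -0.08 without knockout array 1, -0.10 without knockout array 3, -0.34 and -0.31 without wild-type array 2 or 3, -0.32 with these averaged and -0.12 on its second probe. The untested differences of Cxcl2 and Il6 ran from -1.26 to 1.98 and from -1.20 to 0.68. These settings hold fewer arrays or another probe, and the cause was not tested further. Ccl5 (1.18 to 3.23), Ccl7 (2.16 to 4.11), Ccl20 (-3.49 to -0.97), Cxcl5 (-2.28 to -0.33) and Cxcl10 (1.02 to 2.55) kept their direction in these settings wherever they were tested. Slide 1 alone, with 1 array per group, was not among the settings. There Ccl5 (-1.17) and Cxcl10 (-0.77) had the opposite sign, while Ccl7, Ccl20 and Cxcl5 kept theirs. Ccl20 and Cxcl1 were not tested over probes above background on all 6 arrays. Dim signal limits Cxcl2 and Il6, and Ccl20 and Cxcl1 on knockout array 1.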
